A study of Mus musculus with 24 samples.

Results

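The genes described here are those of the mouse *Hox* clusters, taken as every gene whose symbol is Hox followed by a cluster letter from a to d and a paralog number. The annotation used holds 39 such genes, of which 38 had a row among the 39017 gene identifiers of the count files, and 37 of these are described. The identifier of *Hoxd4* matched no row, and that gene was not analysed here. Of the 37 genes, 13 had a mean of at least 5 counts over the 24 libraries and were tested among the 14361 genes past this limit, and 24 lay below it. The 13 genes were *Hoxa2* to *Hoxa7*, *Hoxb6*, *Hoxc4*, *Hoxc5*, *Hoxc6*, *Hoxd3*, *Hoxd8* and *Hoxd9*.

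*Hox* genes encode homeodomain transcription factors that give cells of the embryo their position along the head-to-tail axis and, later, along the limbs. In mammals they lie in a row in each of 4 clusters, and genes with low paralog numbers are used in more anterior tissue than genes with high numbers. Genes that share a paralog number descend from a common ancestor and have similar DNA-binding domains. Fibroblasts keep in culture much of the *Hox* code of the body site from which they came. Trithorax-group and Polycomb-group proteins hold *Hox* genes in their active or silent state, retinoic acid activates the low-numbered genes, and the PBX, MEIS and PKNOX proteins bind DNA together with HOX proteins.

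The libraries came from NIH 3T3, a line grown from mouse embryo fibroblasts that divides without limit, stably transduced with retroviral vectors and selected as pools, with 3 libraries in each of 8 groups. The groups at 48 h of confluence carried an empty vector (EV), TAZ4SA, TAZ-CAMTA1, YAP5SA, YAP-TFE3 or TFE3, and the groups collected at sub-confluence carried an empty vector (EVsub) or CAMTA1. TAZ4SA and YAP5SA are full-length TAZ and YAP in which serines that Hippo pathway kinases phosphorylate were changed to alanine. TAZ-CAMTA1 and YAP-TFE3 are the fusion proteins of epithelioid hemangioendothelioma, and CAMTA1 and TFE3 are their full-length C-terminal partners. All groups therefore went through transduction and selection, and the introduced proteins came in addition to the cells' own TAZ and YAP. Per the paper, the triplicates were transduced separately before selection. The 3 libraries of a group are thus separately made pools of 1 cell line, and p-values measure the spread between such pools. The study asked how far the expression programs of the fusion proteins overlap with those of the full-length proteins.

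Depth ranged from 16471181 to 30132586 counts per library with a median of 22298975. All 10 fibroblast markers examined passed the limit of 5 counts. Of 6 markers for each other cell type, *Cdh1* and *Krt14* (epithelial), *Cdh5*, *Kdr*, *Tek* and *Vwf* (endothelial) and *Cd68* and *Itgam* (leukocyte) passed it as well. The leukocyte marker sum ran from 2.63 to 3.58 CPM (counts scaled to a common library size) in EV and from 5.40 to 6.10 in TFE3. It ran from 13.02 to 58.6 in TAZ4SA and from 47.5 to 78.9 in YAP5SA, with *Cd3e* and *Adgre1* at 0 in all of these groups. The fibroblast marker sum ran from 35826 to 39409 CPM in EV, from 20688 to 26299 in TAZ4SA and from 28533 to 33451 in YAP5SA. The epithelial marker sum was 0.310 to 0.591 CPM in EV and 7.75 to 9.44 in YAP5SA, with *Epcam* at 0 in all groups. The endothelial marker sum ran from 3.01 to 4.9997 CPM in EV, 9.32 to 16.5 in TAZ4SA, 8.64 to 9.70 in YAP5SA, 8.36 to 13.4 in YAP-TFE3, 4.98 to 5.73 in TAZ-CAMTA1, 6.03 to 6.96 in TFE3, 0.819 to 1.00 in EVsub and 1.17 to 2.02 in CAMTA1. The part of these markers in the *Hox* results was not tested, and in bulk RNA fewer cells of a kind and less RNA per cell cannot be told apart. Among the genes of the constructs, *Camta1* was higher in CAMTA1 than in EVsub (log2 fold change 1.07 ± 0.18 SE, adjusted p = 0.0019) and *Wwtr1*, which encodes TAZ, was higher in TAZ4SA than in EV (0.28 ± 0.09 SE, adjusted p = 0.0113). *Camta1* (-0.06 ± 0.18 SE, adjusted p = 0.85) and *Wwtr1* (0.17 ± 0.09 SE, adjusted p = 0.19) were not called higher in TAZ-CAMTA1, nor *Yap1* and *Tfe3* in the groups named for them, so these genes do not check those labels. *Yap1* was lower in YAP5SA than in EV (-0.86 ± 0.08 SE, adjusted p = 8.13e-09). *Tfe3* was higher in YAP5SA (0.87 ± 0.14 SE, adjusted p = 7.41e-06) and TAZ4SA (0.58 ± 0.14 SE, adjusted p = 0.00103), which carry no TFE3. *Wwtr1* was lower in EVsub than in EV (-0.30 ± 0.09 SE, adjusted p = 0.0185). The source of its rise in TAZ4SA was not tested. *Ccn1*, a target gene of TAZ and YAP, was higher than in EV in TAZ4SA (2.74 ± 0.38 SE, adjusted p = 3.23e-06), YAP5SA (5.25 ± 0.43 SE, adjusted p = 5.36e-10), TAZ-CAMTA1 (2.53 ± 0.38 SE, adjusted p = 4.21e-05), YAP-TFE3 (1.73 ± 0.37 SE, adjusted p = 0.00206) and EVsub (1.53 ± 0.37 SE, adjusted p = 0.00482). *Ccn2*, another such target, was higher in TAZ4SA (3.96 ± 0.43 SE, adjusted p = 9.91e-08), YAP5SA (4.24 ± 0.43 SE, adjusted p = 1.47e-08) and EVsub (2.56 ± 0.40 SE, adjusted p = 0.000129) and did not pass the test in TAZ-CAMTA1 (0.99 ± 0.39 SE, adjusted p = 0.0781) or YAP-TFE3 (1.06 ± 0.39 SE, adjusted p = 0.0728).

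Promoters of 9 of these 13 genes were in the RefSeq promoter table, each running from 250 bases before to 50 bases after the start. Those of *Hoxa2*, *Hoxa5*, *Hoxd8* and *Hoxc4* are printed, and each holds a marked site. The first 3 genes fell, and *Hoxc4* rose, in the cells with TAZ4SA and YAP5SA. The printed promoter of *Hoxc4* lies inside that gene's annotated span (chr15:103018934-103036852), downstream of its outermost start, and the counts cover the whole gene. Capitals mark matches, on either strand, to AGGTCA, the half-site of nuclear receptors such as the retinoic acid receptors, or to TGATTGAT, a site for PBX with HOX proteins. *Hoxa3*, *Hoxa6*, *Hoxa7* and *Hoxd3* also fell with both proteins. Of their promoters, not printed here, that of *Hoxd3* holds AGGTCA and the others hold neither motif.
Hoxa2 promoter, GRCm38.p6, chr6:52164782-52165081, minus strand: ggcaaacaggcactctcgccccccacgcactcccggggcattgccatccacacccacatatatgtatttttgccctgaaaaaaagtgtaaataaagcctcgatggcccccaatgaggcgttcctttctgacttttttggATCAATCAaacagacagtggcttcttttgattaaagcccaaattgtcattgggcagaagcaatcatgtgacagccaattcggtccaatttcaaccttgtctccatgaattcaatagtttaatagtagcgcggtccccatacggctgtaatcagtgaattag
Hoxa5 promoter, GRCm38.p6, chr6:52204538-52204837, minus strand: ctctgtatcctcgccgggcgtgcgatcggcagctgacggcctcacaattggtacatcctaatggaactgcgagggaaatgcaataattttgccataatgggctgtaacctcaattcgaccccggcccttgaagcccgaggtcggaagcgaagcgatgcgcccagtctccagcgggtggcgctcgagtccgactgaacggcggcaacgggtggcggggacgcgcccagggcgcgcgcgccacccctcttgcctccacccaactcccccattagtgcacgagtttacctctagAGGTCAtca
Hoxd8 promoter, GRCm38.p6, chr2:74704365-74704664, plus strand: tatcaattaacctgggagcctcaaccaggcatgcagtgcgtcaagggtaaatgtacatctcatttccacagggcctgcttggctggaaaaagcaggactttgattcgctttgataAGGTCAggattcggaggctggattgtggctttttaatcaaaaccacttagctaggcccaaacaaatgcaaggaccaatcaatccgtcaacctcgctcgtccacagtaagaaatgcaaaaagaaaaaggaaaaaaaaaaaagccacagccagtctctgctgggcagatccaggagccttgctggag
Hoxc4 promoter, GRCm38.p6, chr15:103034145-103034444, plus strand: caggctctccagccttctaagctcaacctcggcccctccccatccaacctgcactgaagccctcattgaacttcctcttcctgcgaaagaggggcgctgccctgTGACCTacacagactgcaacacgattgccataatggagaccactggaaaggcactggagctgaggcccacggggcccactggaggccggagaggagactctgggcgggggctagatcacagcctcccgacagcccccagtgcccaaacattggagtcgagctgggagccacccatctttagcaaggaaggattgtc

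AGGTCA was found in 4 of the 9 promoters (*Hoxa5*, *Hoxc4*, *Hoxd3* and *Hoxd8*), against 16.3% of the 32851 promoters in the table. TGATTGAT was found in 1 of 9, that of *Hoxa2*, against 0.746%. GGAATG, the core of sites for the TEAD factors to which TAZ and YAP bind, was in 0 of the 9 and in 14.7% of all promoters, and CACGTG, the E-box form to which TFE3 binds, was in 0 of the 9 and in 7.15% of all. The search took both strands, and no promoter of the 9 held more than 1 kind of these motifs. The 9 promoters had a median GC content of 60.3% and a median of 20 CpG dinucleotides, against 52.7% and 7 for all promoters of the table. Promoters of *Hoxa4*, *Hoxb6*, *Hoxc5* and *Hoxc6* were not analysed here.

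With the empty vector, transcripts came from the anterior and middle part of the *Hoxa* cluster, from *Hoxd3*, *Hoxd8* and *Hoxd9*, and at lower level from *Hoxc4* to *Hoxc6*, and the *Hoxb* cluster was close to silent. Levels were compared between genes as CPM per kb of exon. *Hoxd8* was highest at 13.6 ± 1.01 (SD, n = 3), followed by *Hoxa7* at 11.7 ± 0.622, and the libraries of these genes did not overlap each other or those of the next gene. *Hoxa6* (6.67 ± 0.333), *Hoxa5* (6.42 ± 1.07), *Hoxd9* (5.52 ± 0.199) and *Hoxa2* (4.74 ± 1.43) came next, each overlapping its neighbour in the order. *Hoxd3* (3.25 ± 0.336) and *Hoxa3* (2.69 ± 0.892) also overlapped their neighbours, the latter down to *Hoxc6* (1.82 ± 0.317). The libraries of *Hoxc4* (1.08 ± 0.183), *Hoxa4* (1.04 ± 0.0864) and *Hoxc5* (0.971 ± 0.165) overlapped one another and lay below the *Hoxc6* range. *Hoxb6* was last at 0.0305 ± 0.0266. With the longest transcript as the length, the value of *Hoxa7* went from 11.7 to 16.6 CPM per kb and passed *Hoxd8*, and *Hoxa3* moved from 2.69 to 6.25.

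**Figure D1:**
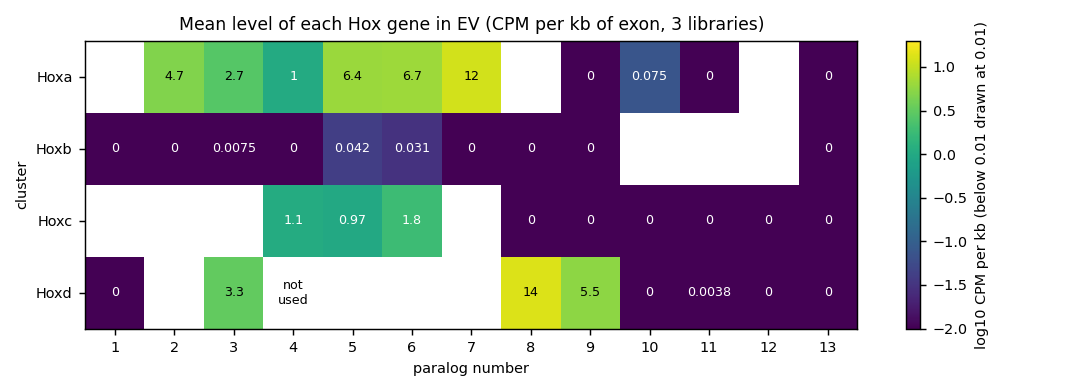
Mean level of each *Hox* gene in the 3 EV libraries, in CPM per kb of exon, by cluster (rows) and paralog number (columns); white cells hold no gene described here, and *Hoxd4* was not used. *Hoxa2* to *Hoxa7* form an unbroken run between 1.04 and 11.7, whereas the *Hoxb* row does not pass 0.042.

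The *Hoxa* genes described (chr6:52162417-52260880 on GRCm38) had 6 of 10 past the limit, in an unbroken run from *Hoxa2* to *Hoxa7*. *Hoxa9*, *Hoxa10* and *Hoxa11* stayed below the limit with at most 2, 9 and 1 counts in a library, and *Hoxa13* had none. The *Hoxb* cluster (chr11:96194316-96368256) had 1 of 10 genes past it. *Hoxb3* reached 12 counts in a library, *Hoxb5* 7, *Hoxb9* 5, *Hoxb8* 4, *Hoxb4* and *Hoxb7* 3, and *Hoxb2* and *Hoxb13* 1, and *Hoxb1* had none.

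The *Hoxc* cluster (chr15:102921103-103036852) had 3 of 9 genes past the limit, *Hoxc4* to *Hoxc6*. Its 5′ genes *Hoxc8*, *Hoxc9* and *Hoxc13* had at most 3, 3 and 1 counts in a library, and *Hoxc10*, *Hoxc11* and *Hoxc12* had none. The *Hoxd* cluster (chr2:74668310-74765142) had 3 of the 8 genes analysed past the limit. *Hoxd10*, *Hoxd11* and *Hoxd13* had at most 4, 1 and 1 counts, and *Hoxd1* and *Hoxd12* had none. The 7 genes with no count in any library, among 549282389 counts in all, could lie at up to 0.00546 CPM, the limit that 3 counts would set. This and the other count intervals cover counting error only.

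Summed over the genes described in a cluster, the *Hoxa* genes gave 86.8, 65.1 and 82.5 CPM in the EV libraries, 43.7, 41.1 and 53.9 in TAZ4SA and 28.1, 26.6 and 29.0 in YAP5SA. With the fusion proteins the sums were 87.9, 74.3 and 74.3 in TAZ-CAMTA1, which overlapped EV, and 86.8, 94.1 and 88.0 in YAP-TFE3, whose lowest library was level with the highest of EV. The sub-confluent groups were the highest, with 121, 105 and 101 in EVsub and 132, 143 and 119 in CAMTA1. For the *Hoxd* genes the sums were 62.5, 66.9 and 58.8 in EV, 40.3, 37.6 and 57.2 in TAZ4SA and 30.3, 26.5 and 30.3 in YAP5SA, the last being the lowest of the 8 groups in every library. The *Hoxc* sums went the other way for YAP5SA, with 16.5, 15.2 and 14.8 against 11.8, 9.02 and 9.65 in EV.

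**Figure D2:**
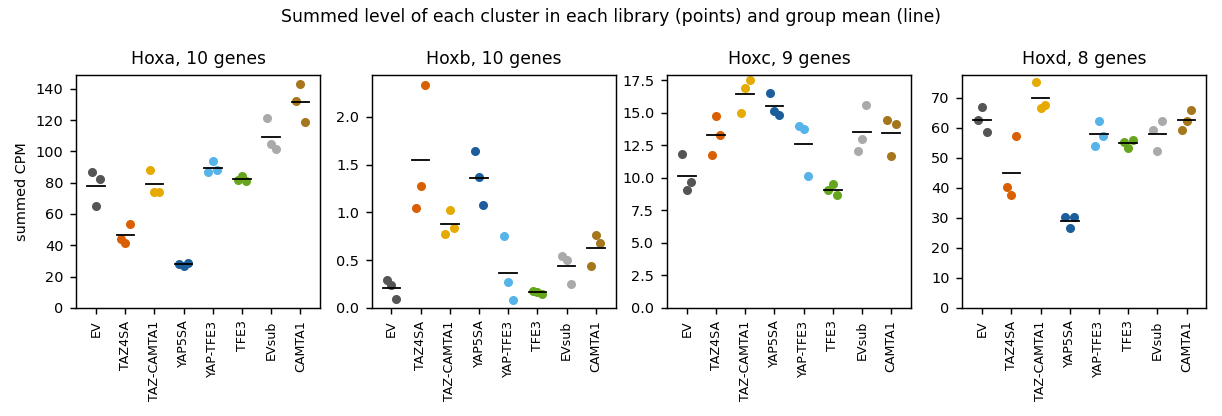
Summed CPM of the described *Hox* genes of each cluster (panels) in each library (points, coloured by group) with the group mean (black line). The YAP5SA libraries are lowest for *Hoxa* (from 26.6 to 29.0) and *Hoxd* (from 26.5 to 30.3). For *Hoxc* they lie above every EV library, as do those of TAZ-CAMTA1 and EVsub.

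All 13 *Hox* genes past the limit differed between YAP5SA and EV at an adjusted p under 0.05, taken here and below from the quasi-likelihood test of edgeR after Benjamini-Hochberg adjustment over all genes tested. *Hoxa2*, *Hoxa3*, *Hoxa5*, *Hoxa6*, *Hoxa7*, *Hoxc5*, *Hoxd3*, *Hoxd8* and *Hoxd9* fell, and *Hoxa4*, *Hoxb6*, *Hoxc4* and *Hoxc6* rose. The counts were 9 lower and 4 higher of 13, where 34.9% of all 14361 genes tested were called lower and 36.3% higher. In none of the 13 genes did the libraries of the 2 groups overlap. The share of all genes without such overlap was not counted, so statements on overlap, here and below, describe single genes only. The median log2 fold change was -1.31 over the 13 genes and 0.01 over all genes. Since a gene that is high only in some groups can pass the limit through those groups, as *Hoxb6* did, the counts here and below describe the genes that passed and not the clusters as a whole. Without *Hoxb6* they were 9 lower and 3 higher of 12 with YAP5SA, 7 and 2 with TAZ4SA, and 0 and 3 with TAZ-CAMTA1. The marker sums given above also differed between these groups.

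The most abundant members fell with YAP5SA without overlap between the groups. *Hoxa7* is the gene past the limit nearest the 5′ end of its cluster. It had 35.5, 31.9 and 33.9 CPM in the EV libraries and 12.9, 9.81 and 11.7 with YAP5SA. All 3 YAP5SA values lay below all EV values, a log2 fold change of -1.56 ± 0.12 SE, adjusted p = 1.21e-10. *Hoxd8* went from 36.3, 40.4 and 35.2 CPM to 14.4, 14.3 and 16.2, a change of -1.32 ± 0.13 SE, adjusted p = 1.19e-08. *Hoxd3*, a paralog of *Hoxa3* known in the patterning of the cervical vertebrae, had 14.7, 14.2 and 12.0 CPM in EV and 5.34, 4.32 and 5.64 with YAP5SA, a change of -1.42 ± 0.28 SE, adjusted p = 9.86e-05. Again no library of the 2 groups overlapped. *Hoxd9*, at the 5′ edge of the *Hoxd* genes past the limit, changed least, by -0.40 ± 0.14 SE, adjusted p = 0.0152. Its call was lost without YAP5SA replicate 2 (0.0807) and without YAP5SA replicate 3 (0.052), with the adjusted p in parentheses.

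The largest fall by log2 fold change was that of *Hoxa2*, which patterns the second branchial arch and the hindbrain, from 10.1, 5.49 and 9.60 CPM in EV to 1.59, 2.60 and 1.84 (-2.06 ± 0.21 SE, adjusted p = 1.32e-08). *Hoxa3*, which is needed for the thymus and parathyroid glands, went from 20.4, 10.2 and 18.0 to 3.49, 5.69 and 5.20 (-1.76 ± 0.21 SE, adjusted p = 1.99e-07). In both genes EV replicate 2 was the lowest of the EV libraries, and it still lay above every YAP5SA library. *Hoxa5*, known for its role in lung development, had 13.4, 9.74 and 12.96 CPM in EV and 5.29, 4.46 and 4.82 with YAP5SA (-1.31 ± 0.18 SE, adjusted p = 1.38e-06). *Hoxa6* had 5.74, 5.59 and 6.15 and 1.90, 2.11 and 2.28 (-1.48 ± 0.21 SE, adjusted p = 2.37e-06), again without overlap.

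**Figure D3:**
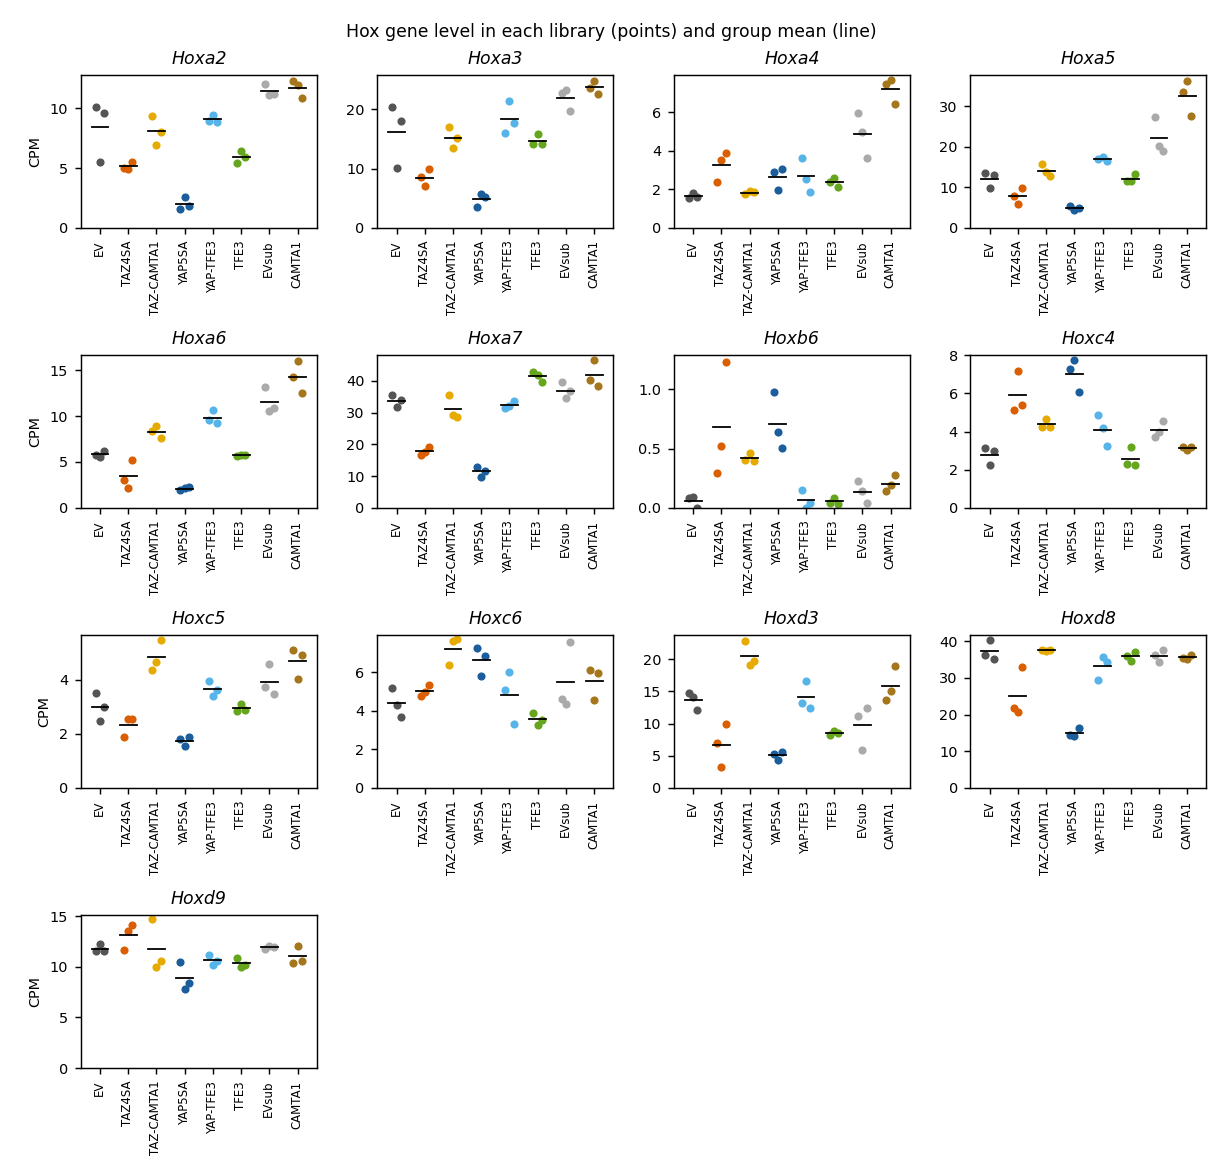
CPM of each tested *Hox* gene (panels, each with its own linear axis from 0) in every library (points, coloured by group) with the group mean (black line). *Hoxa2*, *Hoxa3*, *Hoxa5*, *Hoxa6*, *Hoxa7*, *Hoxd3* and *Hoxd8* are lower in all YAP5SA libraries than in any EV library, whereas *Hoxc4* is higher in all of them.

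With TAZ4SA, *Hoxa2*, *Hoxa3*, *Hoxa5*, *Hoxa6*, *Hoxa7*, *Hoxd3* and *Hoxd8* fell and *Hoxa4*, *Hoxb6* and *Hoxc4* rose relative to the same EV libraries. These are 7 genes lower and 3 higher of 13, against 26.4% and 31.1% of all genes, with a median of -0.56 over the 13 and 0.05 over all. *Hoxa7* had 16.8, 17.6 and 19.1 CPM, which is -0.92 ± 0.11 SE, adjusted p = 5.28e-07 from EV, and its libraries lay between those of YAP5SA and EV. *Hoxa3* had 8.53, 6.97 and 9.94 CPM (-0.93 ± 0.20 SE, adjusted p = 0.000538) and *Hoxd3* 6.995, 3.22 and 9.98 (-0.99 ± 0.27 SE, adjusted p = 0.0036). *Hoxd8* was at 21.7, 20.8 and 33.0 CPM (-0.56 ± 0.13 SE, adjusted p = 0.000805), with replicate 3 nearer to EV than the others. For *Hoxd3* the 3 TAZ4SA libraries spread widely, from 3.22 to 9.98, and still lay below EV.

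Further *Hoxa* genes that fell with TAZ4SA were *Hoxa2*, *Hoxa5* and *Hoxa6*. *Hoxa2* had 5.01, 4.95 and 5.54 CPM (-0.70 ± 0.19 SE, adjusted p = 0.00321) and *Hoxa5* had 7.74, 5.92 and 9.85 (-0.61 ± 0.18 SE, adjusted p = 0.00536), and both groups overlapped EV through its replicate 2. *Hoxa6* had 3.08, 2.17 and 5.23 CPM (-0.70 ± 0.20 SE, adjusted p = 0.00504), without overlap. When only the EV and TAZ4SA libraries entered the fit, these 3 calls were lost, with adjusted p values of 0.0502, 0.0573 and 0.0894. *Hoxc5*, *Hoxc6* and *Hoxd9* did not pass the test, with log2 fold changes of -0.37, 0.19 and 0.15.

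With the fusion proteins 0 of the 13 *Hox* genes were called lower than in EV by edgeR, 0 were lower at an unadjusted p under 0.05, and DESeq2 called 0 lower. With TAZ-CAMTA1 the genes that rose were *Hoxb6*, *Hoxc4*, *Hoxc5* and *Hoxc6*, 4 of 13 genes against 12.5% of all genes called higher and 8.98% lower. With YAP-TFE3 they were *Hoxa5* and *Hoxa6*, 2 of 13 against 10.6% higher and 4.74% lower. The median log2 fold changes over the 13 genes were 0.23 for TAZ-CAMTA1 and 0.13 for YAP-TFE3, and over all genes 0.00 and 0.00. These comparisons and those of TAZ4SA and YAP5SA share the EV libraries. The most abundant of the genes that fell with YAP5SA had levels near EV with the fusion proteins. *Hoxa7* had 35.4, 29.3 and 28.7 CPM with TAZ-CAMTA1 (-0.12 ± 0.11 SE, adjusted p = 0.488) and 31.5, 32.1 and 33.5 with YAP-TFE3 (-0.06 ± 0.11 SE, adjusted p = 0.783). *Hoxd8* had 37.7, 37.4 and 37.5 and 29.5, 35.6 and 34.3 CPM in the 2 groups, with log2 fold changes of 0.01 and -0.17 that did not pass the test.

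*Hoxa6* had 5.74, 5.59 and 6.15 CPM in EV and 9.63, 10.6 and 9.26 with YAP-TFE3 (0.76 ± 0.19 SE, adjusted p = 0.00733), and the call held under all alternatives but the fold limit. *Hoxa5* had 13.4, 9.74 and 12.96 CPM in EV and 17.1, 17.5 and 16.5 with YAP-TFE3 (0.50 ± 0.17 SE, adjusted p = 0.0486). Its call was lost under 8 of 12 alternatives (the fold limit not counted, here and below), including each of the 6 fits without 1 library of these groups, with an adjusted p of up to 0.195 (without EV replicate 2). *Hoxc4* did not pass the test (0.55 ± 0.19 SE, adjusted p = 0.0565), and was called by DESeq2 (0.0491). The number of *Hox* genes called with YAP-TFE3 was 3 without YAP-TFE3 replicate 3 and 1 without any other single library of the 2 groups, against 2 with all libraries.

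**Figure D4:**
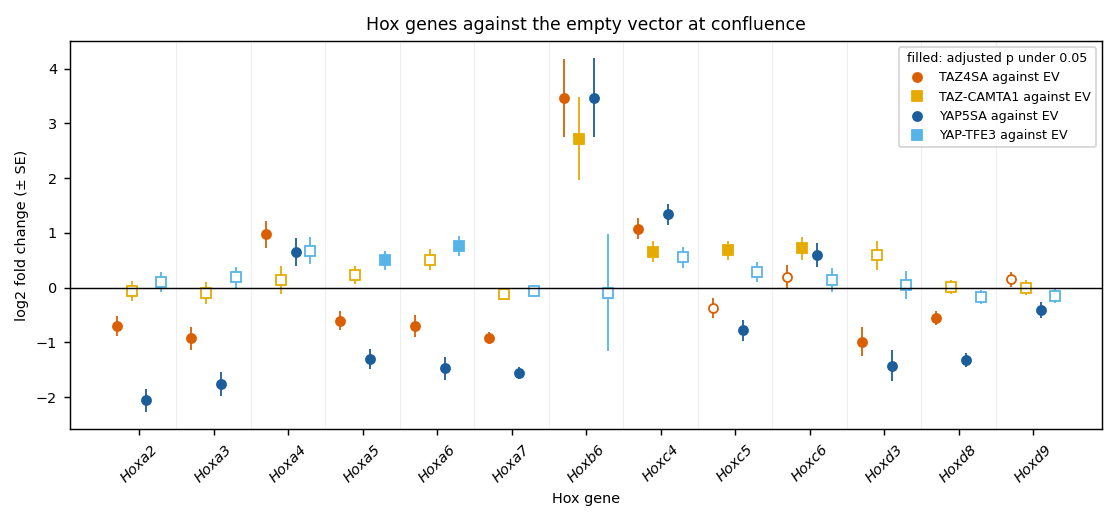
Log2 fold change ± SE of the 13 tested *Hox* genes (x axis) in TAZ4SA, TAZ-CAMTA1, YAP5SA and YAP-TFE3 against EV, from edgeR's fit, with filled symbols for an adjusted p under 0.05. Circles of the full-length mutants lie below 0 for *Hoxa2*, *Hoxa3*, *Hoxa5*, *Hoxa6*, *Hoxa7*, *Hoxd3* and *Hoxd8*, where no square of a fusion protein is filled below 0.

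The *Hoxc* genes rose with TAZ-CAMTA1 by similar amounts. *Hoxc4* had 3.12, 2.24 and 2.96 CPM in EV and 4.25, 4.66 and 4.23 with TAZ-CAMTA1 (0.65 ± 0.19 SE, adjusted p = 0.0176). *Hoxc5* had 3.504, 2.48 and 3.01 and 4.37, 4.66 and 5.47 (0.69 ± 0.17 SE, adjusted p = 0.00664), and *Hoxc6* 5.19, 4.30 and 3.67 and 6.35, 7.59 and 7.70 (0.72 ± 0.22 SE, adjusted p = 0.0209). None of the 3 genes overlapped between the groups. The *Hoxc4* call was lost without EV replicate 2 (0.0788) and without TAZ-CAMTA1 replicate 2 (0.0675), and the *Hoxc6* call without EV replicate 3 (0.111), without TAZ-CAMTA1 replicate 2 (0.0708) and without TAZ-CAMTA1 replicate 3 (0.0762), with the adjusted p in parentheses. *Hoxa6* (0.51 ± 0.19 SE, adjusted p = 0.0584) and *Hoxd3* (0.59 ± 0.26 SE, adjusted p = 0.111) did not overlap EV and did not pass the test, and both were called when only these groups entered the fit (0.0163 and 0.00651), *Hoxa6* also by DESeq2 (0.0349) and *Hoxd3* without a filter on low counts (0.039). The number of *Hox* genes called was 2 without EV replicate 3 or without TAZ-CAMTA1 replicate 2, against 4 with all libraries.

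With YAP5SA the neighbours in the *Hoxc* cluster moved apart. *Hoxc4* had 7.29, 7.75 and 6.08 CPM, above every EV library (1.34 ± 0.19 SE, adjusted p = 1.96e-06), whereas *Hoxc5* had 1.80, 1.57 and 1.90, below every EV library (-0.78 ± 0.19 SE, adjusted p = 0.00104). *Hoxc6*, which lies inside the annotated span of *Hoxc5*, had 7.24, 5.79 and 6.84 CPM (0.59 ± 0.22 SE, adjusted p = 0.0206), and its call was lost without EV replicate 3 (0.093) and without YAP5SA replicate 1 (0.07) and when at least 10 counts were asked of every library (0.0513). With TAZ4SA, *Hoxc4* had 5.11, 7.20 and 5.41 (1.07 ± 0.19 SE, adjusted p = 6.7e-05), and *Hoxc5* had 1.89, 2.55 and 2.55, which overlapped EV (-0.37 ± 0.19 SE, adjusted p = 0.0927). The exons of *Hoxc5* share 5.37% of their length with *Hoxc10* on the same strand, and *Hoxc10* had no count in any library.

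*Hoxa4* went against its neighbours *Hoxa3* and *Hoxa5* in the cells with TAZ4SA and YAP5SA. Its level was 1.56, 1.81 and 1.59 CPM in EV, 2.38, 3.52 and 3.87 with TAZ4SA (0.97 ± 0.25 SE, adjusted p = 0.00212) and 2.87, 1.96 and 3.04 with YAP5SA (0.66 ± 0.25 SE, adjusted p = 0.0249). Neither group overlapped EV. The call with YAP5SA was lost without EV replicate 1 (0.068), without EV replicate 3 (0.0626), without YAP5SA replicate 1 (0.0806) and without YAP5SA replicate 3 (0.0935). With TAZ-CAMTA1 the libraries held 1.74, 1.91 and 1.84 CPM (0.14 ± 0.26 SE, adjusted p = 0.741) and with YAP-TFE3 3.61, 2.51 and 1.87 (0.68 ± 0.25 SE, adjusted p = 0.0712), neither of which passed the test with all libraries, and the latter was called without YAP-TFE3 replicate 3 (0.0219). The annotated span of *Hoxa3* runs across *Hoxa4*, *Hoxa5* and *Hoxa6*.

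*Hoxb6*, the only *Hoxb* gene past the limit, was counted rarely and passed through the groups in which it was high. It had 2, 2 and 0 counts in EV, 10, 10 and 10 in TAZ-CAMTA1, 6, 7 and 28 in TAZ4SA and 19, 13 and 8 in YAP5SA. There were 3, 0 and 1 counts in YAP-TFE3 and 1, 2 and 1 in TFE3. Every library of the first 3 proteins lay above every EV library, and YAP-TFE3 and TFE3 overlapped EV. The ratio of the group's normalized counts to EV was 7.08 (95% exact interval 2.49 to 27.7) for TAZ-CAMTA1, 12.3 (95% exact interval 4.44 to 47.1) for TAZ4SA and 12.1 (95% exact interval 4.37 to 46.5) for YAP5SA. The 15 libraries of the other groups held 39 counts, a mean of 2.60 against 6.25 over all 24, so the calls of *Hoxb6* are a description of the groups through which it reached the limit. The TAZ-CAMTA1 call was lost without EV replicate 3 (0.0684). In TAZ4SA, replicate 3 gave 28 of the 41 counts. *Hoxb3*, below the limit, had 0, 2 and 0 counts in EV, 4, 5 and 12 in TAZ4SA, 5, 5 and 7 in TAZ-CAMTA1 and 6, 5 and 4 in YAP5SA, a ratio to EV of 12.6 (95% exact interval 3.07 to 110.4) for TAZ4SA. Of its exons, 52.9% overlap *Hoxb3os* on the opposite strand.

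The direct comparison of each fusion protein with its full-length counterpart gave the difference between them. TAZ-CAMTA1 was called above TAZ4SA in 9 of 13 *Hox* genes (*Hoxa2*, *Hoxa3*, *Hoxa5*, *Hoxa6*, *Hoxa7*, *Hoxc5*, *Hoxc6*, *Hoxd3* and *Hoxd8*) and below it in 1, *Hoxa4*. Of all genes, 26.6% were called higher and 28.1% lower. YAP-TFE3 was called above YAP5SA in 8 genes (*Hoxa2*, *Hoxa3*, *Hoxa5*, *Hoxa6*, *Hoxa7*, *Hoxc5*, *Hoxd3* and *Hoxd8*) and below it in 2, *Hoxb6* and *Hoxc4*, against 36.4% and 34.5% of all genes. The median log2 differences were 0.65 and 1.15 over the 13 genes, and 0.00 and 0.05 over all genes.

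*Hoxa6* differed most among the *Hoxa* genes between YAP-TFE3 and YAP5SA, with 9.63, 10.6 and 9.26 against 1.90, 2.11 and 2.28 CPM (2.23 ± 0.21 SE, adjusted p = 5.61e-09). *Hoxa2* followed with 8.93, 9.48 and 8.83 against 1.59, 2.60 and 1.84 (2.17 ± 0.21 SE, adjusted p = 6.82e-09). No library of the 2 groups overlapped for either gene. Between TAZ-CAMTA1 and TAZ4SA the largest difference among the 13 genes was that of *Hoxd3* (1.57 ± 0.27 SE, adjusted p = 5.06e-05). The *Hoxd3* libraries with TAZ-CAMTA1 held 22.8, 19.1 and 19.6 CPM, all above the TAZ4SA values. *Hoxa6* had 8.41, 8.90 and 7.62 with TAZ-CAMTA1 and 3.08, 2.17 and 5.23 with TAZ4SA (1.21 ± 0.20 SE, adjusted p = 2.99e-05). The *Hoxc6* difference between TAZ-CAMTA1 and TAZ4SA was 0.52 ± 0.22 SE, adjusted p = 0.0469, and this call was lost under 7 of 12 alternatives, with an adjusted p of up to 0.12. Among the losses of that call were those without TAZ4SA replicate 1 (0.117), without TAZ4SA replicate 2 (0.0919), without TAZ4SA replicate 3 (0.0537), without TAZ-CAMTA1 replicate 2 (0.108) and without TAZ-CAMTA1 replicate 3 (0.12).

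**Figure D5:**
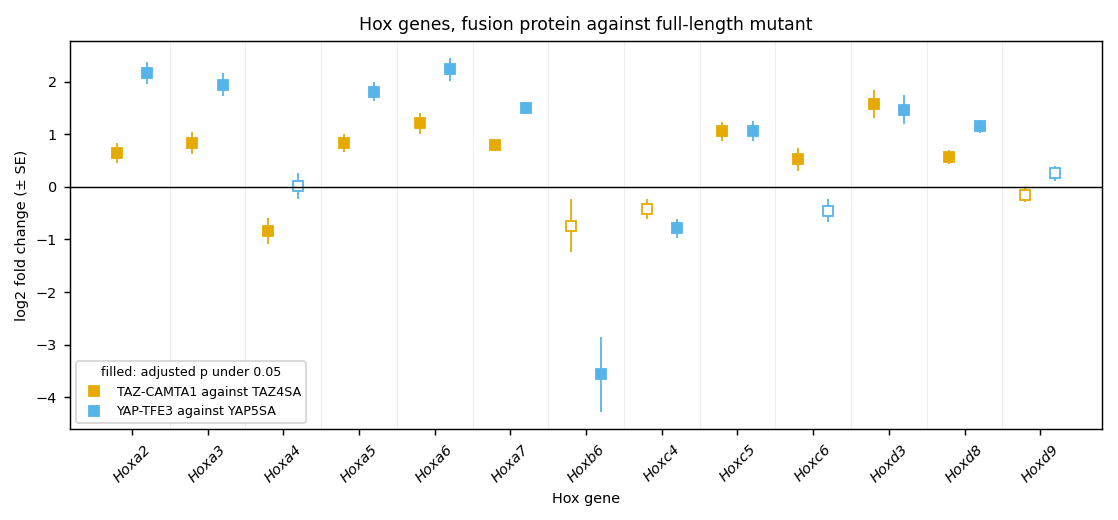
Log2 fold change ± SE of the 13 tested *Hox* genes (x axis) in TAZ-CAMTA1 against TAZ4SA and in YAP-TFE3 against YAP5SA, with filled symbols for an adjusted p under 0.05. Both fusion proteins lie above their full-length mutant for *Hoxa2*, *Hoxa3*, *Hoxa5*, *Hoxa6*, *Hoxa7*, *Hoxc5*, *Hoxd3* and *Hoxd8*, whereas *Hoxa4* is filled below 0 for TAZ-CAMTA1 alone.

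YAP-TFE3 and its C-terminal partner differed in 5 of the 13 genes. *Hoxa2*, *Hoxa5*, *Hoxa6* and *Hoxc4* were higher and *Hoxa7* was lower with YAP-TFE3 than with TFE3, against 14.3% of all genes called higher and 8.62% lower. *Hoxa6* had 9.63, 10.6 and 9.26 CPM against 5.63, 5.74 and 5.79 (0.78 ± 0.19 SE, adjusted p = 0.00364), and *Hoxa2* 8.93, 9.48 and 8.83 against 5.45, 6.41 and 5.96 (0.61 ± 0.18 SE, adjusted p = 0.0183). The *Hoxa7* libraries held 31.5, 32.1 and 33.5 and 42.7, 41.9 and 39.6 CPM (-0.36 ± 0.11 SE, adjusted p = 0.0204). Leaving out 1 library at a time brought the number of calls to between 1 and 5, and it moved by more than 1.5 times without each of TFE3 replicates 1, 2 and 3 and YAP-TFE3 replicates 1 and 2. The *Hoxa6* call held in all of these fits, and each of the other 4 was lost without at least 1 of the libraries.

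TFE3 alone gave 0 of 13 calls against EV by edgeR, where 2.36% of all genes were called higher and 1.02% lower. At an unadjusted p under 0.05 there were 3 *Hox* genes, 1 higher and 2 lower, and DESeq2 called 0. The 3 genes were *Hoxa7*, with 42.7, 41.9 and 39.6 CPM (0.29 ± 0.11 SE, adjusted p = 0.173), *Hoxd3*, with 8.22, 8.86 and 8.47 (-0.68 ± 0.26 SE, adjusted p = 0.202), and *Hoxa2*, with 5.45, 6.41 and 5.96 (-0.50 ± 0.18 SE, adjusted p = 0.17). *Hoxa7* and *Hoxd3* did not overlap EV, and *Hoxa2* did and was called without EV replicate 2 (0.0197). Between TAZ-CAMTA1 and YAP-TFE3 the call of 1 gene, *Hoxb6*, came from a gene that reached the limit through TAZ-CAMTA1 and 2 other groups (ratio 7.72, 95% exact interval 2.72 to 30.2). Of the other 12 genes edgeR called 0, 3 were higher and 1 lower with TAZ-CAMTA1 at an unadjusted p under 0.05, and DESeq2 called 0, against 5.32% of all genes called higher and 6.32% lower. The *Hoxb6* call was lost without TAZ-CAMTA1 replicate 2 (0.0554), without YAP-TFE3 replicate 2 (0.0919) and without YAP-TFE3 replicate 3 (0.0599).

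Part of the *Hoxa* cluster was higher in the sub-confluent cells with the empty vector. *Hoxa4*, *Hoxa5*, *Hoxa6* and *Hoxc4* were higher in EVsub than in EV, which is 4 of 13 against 12.5% higher and 9.59% lower of all genes. *Hoxa4* had 5.97, 4.99 and 3.64 CPM at sub-confluence against 1.56, 1.81 and 1.59 at confluence (1.55 ± 0.24 SE, adjusted p = 0.000114). *Hoxa5* had 27.4, 20.1 and 19.0 against 13.4, 9.74 and 12.96 (0.88 ± 0.17 SE, adjusted p = 0.000794) and *Hoxa6* 13.2, 10.5 and 10.9 against 5.74, 5.59 and 6.15 (0.98 ± 0.19 SE, adjusted p = 0.000794). These 3 genes lie next to each other and did not overlap between the groups in any library. *Hoxa7*, the next gene, had 39.6, 34.4 and 36.8 CPM in EVsub (0.13 ± 0.11 SE, adjusted p = 0.441), and *Hoxd8* had 36.3, 34.4 and 37.5 (-0.05 ± 0.13 SE, adjusted p = 0.835), neither of which passed the test. The *Hoxc4* call (0.56 ± 0.19 SE, adjusted p = 0.0414) was lost under 8 of 12 alternatives, including each of the 6 fits without 1 of its libraries, with an adjusted p of up to 0.162 (without EV replicate 2). Density cannot be told apart from any other difference between the EVsub and EV cultures.

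CAMTA1 gave 0 of 13 calls against EVsub by edgeR, where 1.29% of all genes were called higher and 0.891% lower. At an unadjusted p under 0.05 there were 3 *Hox* genes, all higher with CAMTA1, and DESeq2 called 1 of the 13, *Hoxa5* (adjusted p = 0.0288). *Hoxa5* had 33.6, 36.3 and 27.6 CPM with CAMTA1 and 27.4, 20.1 and 19.0 in EVsub, without overlap (0.55 ± 0.16 SE, adjusted p = 0.0803 by edgeR). The gene was called by edgeR without EVsub replicate 1 (0.0192). The others were *Hoxa4* (0.56, adjusted p = 0.178) and *Hoxd3* (0.70, adjusted p = 0.164), given as log2 fold changes.

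Of the other genes inside the clusters 7 were tested, and they followed different directions. *Gm15050*, an antisense gene inside the *Hoxa3* span, rose with TAZ4SA (1.32 ± 0.23 SE, adjusted p = 3.59e-05) and YAP5SA (1.20 ± 0.23 SE, adjusted p = 6.44e-05). *Hoxaas3*, antisense to *Hoxa7* and *Hoxa3*, fell with YAP5SA (-0.92 ± 0.36 SE, adjusted p = 0.026) and was higher in EVsub (1.01 ± 0.29 SE, adjusted p = 0.0163). *5730596B20Rik*, annotated as protein-coding inside *Hoxa3* on the opposite strand, fell with TAZ4SA (-1.01 ± 0.32 SE, adjusted p = 0.00937) and YAP5SA (-1.54 ± 0.33 SE, adjusted p = 0.000287). In the *Hoxd* cluster, *Hoxd3os1* (-1.34 ± 0.25 SE, adjusted p = 5.54e-05) and *Haglr* (-1.89 ± 0.66 SE, adjusted p = 0.0135) fell with YAP5SA. *Gm11539*, a processed pseudogene in the *Hoxb* cluster, rose with YAP5SA to 3.22 ± 0.302 CPM from 0.949 ± 0.148 in EV (SD, n = 3, with a log2 fold change of 1.75 ± 0.51 SE, adjusted p = 0.00439). With TAZ4SA it was called as well (2.77 ± 0.50 SE, adjusted p = 7.81e-05), from libraries that ran from 1.36 to 13.9 CPM, and reads of such a copy can be shared with its parent gene. *Hoxaas2* did not pass the test in any of the 11 comparisons, with 0.15 ± 0.36 SE, adjusted p = 0.721 for YAP5SA. The exons of *Hoxa7* overlap *Hoxaas3* over 20.4% of their length, those of *Hoxa3* overlap 3 antisense genes over 18.2%, and those of *Hoxd3* overlap *Hoxd3os1* and *Haglr* over 8.78%, and the use of strand in the counting is not given in the sources used here, so the values of these pairs may not be fully separate.

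Of the protein-coding genes that flank the clusters and passed the limit, *Smug1* alone fell with TAZ4SA or YAP5SA. *Skap2*, which flanks the *Hoxa* cluster, rose with YAP5SA (0.57 ± 0.09 SE, adjusted p = 7.02e-06) and did not pass the test with TAZ4SA (0.00 ± 0.09 SE, adjusted p = 0.982). *Mtx2*, next to *Hoxd1*, did not pass it in any of the 11 comparisons, with 0.16 ± 0.11 SE, adjusted p = 0.192 for YAP5SA. *Calcoco1*, next to *Hoxc13*, rose with YAP5SA (0.97 ± 0.20 SE, adjusted p = 0.00017). *Smug1*, next to *Hoxc4*, fell with TAZ4SA (-0.54 ± 0.10 SE, adjusted p = 0.000132), YAP5SA (-0.36 ± 0.10 SE, adjusted p = 0.00355) and TAZ-CAMTA1 (-0.31 ± 0.10 SE, adjusted p = 0.0337) and was also lower in EVsub than in EV (-0.32 ± 0.10 SE, adjusted p = 0.026). *Evx1* and *Evx2*, homeobox genes beside *Hoxa13* and *Hoxd13*, and *Ttll6* and *Skap1* beside the *Hoxb* cluster lay below the limit of 5 counts.

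Genes of HOX partner proteins were tested beside the *Hox* genes. Of the 9 PBX, MEIS and PKNOX genes, 2 rose and 5 fell with YAP5SA (36.3% and 34.9% of all genes), 3 rose and 5 fell with TAZ4SA (31.1% and 26.4% of all genes), 1 rose and 2 fell with TAZ-CAMTA1 (12.5% and 8.98% of all genes), and 0 rose and 1 fell with YAP-TFE3 (10.6% and 4.74% of all genes). Medians of the 9 log2 fold changes were -0.32, -0.39, -0.11 and -0.13 in that order, against 0.01, 0.05, 0.00 and 0.00 over all genes. *Pknox2* fell with YAP5SA (log2 fold change -4.47, adjusted p = 1.95e-10), TAZ4SA (-4.54, adjusted p = 7.51e-10) and YAP-TFE3 (-1.45, adjusted p = 0.000295). *Meis2* fell with YAP5SA (-1.58, adjusted p = 1.43e-09), TAZ4SA (-0.96, adjusted p = 3.24e-06) and TAZ-CAMTA1 (-0.48, adjusted p = 0.012), whereas *Pbx4* rose with YAP5SA (2.78, adjusted p = 1.37e-09), TAZ4SA (1.82, adjusted p = 2.16e-06) and TAZ-CAMTA1 (1.12, adjusted p = 0.00219).

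Of 20 Polycomb genes, 8 rose and 10 fell with YAP5SA (36.3% and 34.9% of all genes), 7 rose and 4 fell with TAZ4SA (31.1% and 26.4% of all genes), and 0 rose and 2 fell with YAP-TFE3 (10.6% and 4.74% of all genes). With TAZ-CAMTA1 edgeR called 0 of them, 2 were higher and 1 lower at an unadjusted p under 0.05, and DESeq2 called 0 higher and 0 lower. The median log2 fold changes of the list were -0.29, -0.02, -0.03 and 0.01 for YAP5SA, TAZ4SA, YAP-TFE3 and TAZ-CAMTA1. *Bmi1*, a subunit of Polycomb repressive complex 1, fell with YAP5SA (-1.98, adjusted p = 2.64e-10) and TAZ4SA (-1.34, adjusted p = 1.82e-07). *Eed*, a core subunit of the complex that methylates lysine 27 of histone H3, rose with YAP5SA (1.24, adjusted p = 3.26e-08) and TAZ4SA (1.35, adjusted p = 2.91e-08), and *Mtf2*, which recruits that complex, fell with YAP5SA (-1.96, adjusted p = 3.03e-08). Of 12 trithorax and H3K27 demethylase genes, 7 rose and 4 fell with YAP5SA (36.3% and 34.9% of all genes), 7 rose and 2 fell with TAZ4SA (31.1% and 26.4% of all genes), and 0 rose and 2 fell with TAZ-CAMTA1 (12.5% and 8.98% of all genes). With YAP-TFE3 edgeR called 0 of them, 0 were higher and 4 lower at an unadjusted p under 0.05, and DESeq2 called 0 higher and 0 lower. Their medians in the order used for the Polycomb genes were 0.30, 0.35, -0.14 and 0.00. *Dot1l*, which methylates lysine 79 of histone H3, rose with YAP5SA (1.73, adjusted p = 3.6e-09) and TAZ4SA (1.64, adjusted p = 2.56e-08), and the demethylase gene *Kdm6a* fell with YAP5SA (-1.05, adjusted p = 1.48e-07). *Kdm6b*, the other H3K27 demethylase gene, rose with TAZ4SA (1.08, adjusted p = 2.58e-05) and fell with TAZ-CAMTA1 (-0.54, adjusted p = 0.0314), and its mean was 153 ± 22.6 CPM with YAP5SA against 90.6 ± 13.04 in EV (SD, n = 3).

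In the retinoic acid pathway 14 of 18 genes were tested, of which 4 rose and 6 fell with YAP5SA (36.3% and 34.9% of all genes), 5 rose and 3 fell with TAZ4SA (31.1% and 26.4% of all genes), 2 rose and 1 fell with YAP-TFE3 (10.6% and 4.74% of all genes), and 0 rose and 1 fell with TAZ-CAMTA1 (12.5% and 8.98% of all genes). The median log2 fold changes of the 14 tested genes were -0.54, -0.17, 0.14 and -0.21 in that order. *Aldh1a1*, which makes retinoic acid, rose with TAZ4SA (4.58, adjusted p = 3.57e-09) and YAP5SA (4.08, adjusted p = 4.07e-09). *Crabp2* also rose with TAZ4SA (3.49, adjusted p = 8.94e-08) and YAP5SA (3.46, adjusted p = 3.51e-08). *Cyp26b1* rose with TAZ4SA (1.75, adjusted p = 0.000229), and *Cyp26a1* fell with YAP5SA (-1.81, adjusted p = 0.00534). Retinoic acid itself was not measured. With CAMTA1, 4 genes rose and 1 fell against EVsub (1.29% and 0.891% of all genes), and *Rarb*, a receptor gene that is itself a retinoic acid target, was among the rises (2.13, adjusted p = 0.000741). With YAP-TFE3 *Rarb* rose as well (1.55, adjusted p = 0.00814).

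Of the 7 Cdx and Gdf11 axial regulators 2 were tested. *Gdf11* fell with YAP5SA (-1.19, adjusted p = 1.84e-07), TAZ4SA (-0.70, adjusted p = 0.000252) and YAP-TFE3 (-0.56, adjusted p = 0.00726) and rose with TFE3 (0.74, adjusted p = 0.00333). *Egr2*, which activates *Hoxa2* in the hindbrain, fell with YAP5SA from 13.6 ± 1.63 to 0.0881 ± 0.0215 CPM (SD, n = 3, adjusted p = 4.04e-11) and by log2 fold changes with TAZ4SA (-4.98, adjusted p = 9.1e-10), TAZ-CAMTA1 (-1.60, adjusted p = 0.000242) and YAP-TFE3 (-0.96, adjusted p = 0.0176). Of 20 other positional homeobox and T-box genes 12 were tested. Among these 2 rose and 7 fell with YAP5SA (36.3% and 34.9% of all genes), 2 rose and 5 fell with TAZ4SA (31.1% and 26.4% of all genes), 1 rose and 1 fell with YAP-TFE3 (10.6% and 4.74% of all genes), and 1 rose and 0 fell with TAZ-CAMTA1 (12.5% and 8.98% of all genes). Their median log2 fold changes were -0.85, -0.31, 0.09 and -0.05 in that order. *Prrx1*, a homeobox gene of mesenchyme, fell with YAP5SA (-1.62, adjusted p = 5.96e-10) and TAZ4SA (-1.10, adjusted p = 4.36e-07) and rose with YAP-TFE3 (0.44, adjusted p = 0.0242). *Emx2* rose with YAP5SA (2.02, adjusted p = 6.54e-08), TAZ4SA (1.99, adjusted p = 2.2e-07) and TAZ-CAMTA1 (1.40, adjusted p = 9.58e-05).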

How the data were processed

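The 24 libraries from NIH 3T3 cells form 8 groups of 3, taken from the sample labels. For YAP-TFE3 replicate 3 the description names replicate 2, and the title was used. Per the paper's methods, cells were made in triplicate, polyA libraries were stranded, and reads were aligned to mm10 with Hisat2 and also pseudo-aligned with Salmon, whose transcript abundances tximport turned into gene-level counts. The authors deposited raw counts per Ensembl gene, whole numbers without normalization. Which of these routes gave the deposited counts, and the strand setting, are not given in the sources used here.

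Symbols and coordinates came from GENCODE M21 (GRCm38), which matched 37693 of 39017 identifiers. CPM used TMM-scaled library sizes, and CPM per kb the union of exons. The 14361 genes whose mean reached 5 counts were tested with edgeR 4.0.16 (R 4.3.3, quasi-likelihood, 1 fit of all libraries, a coefficient per group), and an adjusted p (Benjamini-Hochberg) under 0.05 was a call. The test was checked on simulated counts. Ratios of low counts carry exact Clopper-Pearson intervals at 95%. Promoters came from RefSeq (GRCm38.p6), searched with Python 3.11.15.

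Named were the *Hox* genes, the flanking genes, the other tested genes inside the clusters, the genes of the constructs with *Ccn1* and *Ccn2*, and from each gene list and comparison at most 3 called members of largest change. 1 *Hox* gene past the limit and some genes of the lists are not reported here. The members and lists were chosen with earlier results of these data known. Same-numbered libraries did not deviate together in all 3 pairs of any comparison, so numbers were not taken as pairs. For CAMTA1 against EVsub the correlations of these deviations were 0.252, -0.00246 and 0.410 for replicates 1, 2 and 3. No 2 libraries of a group agreed within sampling noise. Alternatives were DESeq2 1.42.0, its size factors, a fit of 24737 genes without a filter, a stricter filter of 10 counts in each library that left 11461, the replicate block, fits of the compared groups alone, a fold limit, each library left out, and the longest transcript as length.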

Additional observations from a re-analysis of the deposited data

How the results depend on the processing

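Of the 143 combinations of 13 *Hox* genes and 11 comparisons, 59 were called, 42 kept the call under every alternative other than the fold limit, 45 kept it in every fit without 1 library, and no call reversed. When calls also had to reach a log2 fold change of 1 in size, fewer genes were called by construction. Against EV the number of *Hox* genes called was 1 for TAZ-CAMTA1 (*Hoxb6*), 2 for TAZ4SA (*Hoxb6* and *Hoxc4*), 0 for YAP-TFE3 and 9 for YAP5SA. Both TAZ4SA calls were higher, where the full count held 3 higher and 7 lower. *Hoxb6*, also among the 9 of YAP5SA, reached the count limit through TAZ-CAMTA1, TAZ4SA and YAP5SA. The number was 1 for EVsub against EV, 3 for TAZ-CAMTA1 against TAZ4SA and 0 for YAP-TFE3 against TFE3. YAP-TFE3 against EV gave 1 call with DESeq2's size factors and 1 with at least 10 counts in every library. Leaving out 1 library at a time gave 2 to 4 calls for TAZ-CAMTA1, 10 to 11 for TAZ4SA, 1 to 3 for YAP-TFE3, 11 to 13 for YAP5SA and 0 to 1 for TFE3 against EV, 0 to 1 for CAMTA1 against EVsub, 3 to 5 for EVsub against EV, 9 to 11 for TAZ-CAMTA1 against TAZ4SA, 10 to 11 for YAP-TFE3 against YAP5SA, 1 to 5 for YAP-TFE3 against TFE3 and 0 to 1 for TAZ-CAMTA1 against YAP-TFE3. In fits of the compared groups alone, TFE3 against EV gave 2 calls and TAZ-CAMTA1 against YAP-TFE3 gave 2. CAMTA1 against EVsub gave 1 call with DESeq2 and 1 with no filter, and TAZ-CAMTA1 against YAP-TFE3 gave 0 with at least 10 counts in every library, a filter that removes *Hoxb6*. The causes of the other moves were not tested. With the replicate block, TAZ-CAMTA1 against TAZ4SA gave 9 calls and YAP-TFE3 against TFE3 gave 6, and the counts of the other 9 comparisons stayed at their value. Without a filter, *Hoxb3* and *Hoxb9* were also called higher than EV with TAZ4SA and YAP5SA, from at most 12 and 4 counts in a library of those groups.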
